A study of Drosophila melanogaster with 4 samples.

Results

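Kinesins are motor proteins that walk along microtubules or take them apart at their ends. Some carry cargo, some build and shorten the spindle, and others move material into cilia. In the *Drosophila* testis the family serves the meiotic spindle and cytokinesis of spermatocytes, and the centrioles from which the sperm tails grow.

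The genes described here are the kinesin-like protein genes *Klp3A*, *Klp10A*, *Klp31E*, *Klp54D*, *Klp59C*, *Klp59D*, *Klp61F*, *Klp64D*, *Klp67A* and *Klp68D*. A gene was measured where the array annotation gives a probe set to it and to no other gene. This held for 7 of the 10, with 1 probe set each, out of 11982 genes measured in this way and 18769 probe sets in all. *Klp3A* and *Klp64D* were not analysed here, and the probe set listed for *Klp54D* is shared with *CG43324*.

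RNA came from testes of males aged 0 to 2 days, hybridised to 4 GeneChip *Drosophila* Genome 2.0 arrays. Several short probes, together a probe set, read a transcript there. The *nsr* mutant (CG3875 knockout) carries a null allele made by ends-in gene targeting, which removes most of the gene in every cell of the fly. The WT control is a recombinant of the same targeting that kept the normal allele. Each genotype had 2 arrays, which the methods of the study describe as duplicates. No source used here says whether separate groups of flies were used, so p-values measure the spread between these arrays, which may be technical.

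As a check of the labels, the intensity of *nsr* was 23.2 and 27.6 in the mutant against 549 and 554 in WT. Its log2 fold change was -3.78, and the positions of its probes relative to the deletion are not given. It was the 1 probe set of 18769 called, or 0.00533%, at an adjusted p under 0.05. The highest of 50 control probe sets taken as negative controls lay between 5.70 and 8.58 on the 4 arrays, and 10038 probe sets were above it on all 4. Among the marker lists, that for spermatids summed to intensities of 8535 and 9105 in the mutant and 9684 and 10260 in WT, and of its 6 genes 4 had the brighter mutant array below the dimmer WT array (24.9% of all probe sets did), while *soti* was reversed (10.2% did), at 174 and 143 against 114 and 119. The spermatocyte list (6 of 6 genes measured) summed to 1657 and 2146 against 1912 and 2305, and the early germline list (5 of 5) to 183 and 208 against 185 and 244. Of the 6 spermatocyte genes, 2 had both mutant arrays below both WT arrays, *can* and *mia*, beside 24.9% of all probe sets, and 0 were reversed. The muscle list (4 of 5) ran the other way, at 230.1 and 239 against 163 and 177. Of its 4 genes, 2 were above both WT arrays on both mutant arrays, *fln* and *Act88F*, beside 10.2% of all probe sets. *Tm2* and *up* overlapped between genotypes. With the array medians set equal, *fln* and *Act88F* were called, as were 0.591% of all probe sets. Somatic testis markers (4 of 5) summed to 137 and 87.2 in the mutant and 134 and 128 in WT, with *tj* and *upd1* at background. Most of these sums came from *eya*, at 125 and 77.7 in the mutant and 114 and 120 in WT. Each sum in this paragraph is led by the brightest genes of its list. The sums of the accessory gland (5 of 5) and fat body (4 of 4) lists overlapped between genotypes. Of the 5 accessory gland genes, 2 had both mutant arrays below both WT arrays, beside 24.9% of all probe sets, and 0 were reversed. These were *Acp36DE*, at 50.3 and 58.3 against 60.4 and 65.5, and *Acp26Aa*. Of these lists *Acp26Aa* and *Yp1* were at background. The germline marker *vas* was at background too. The part of these differences in the kinesin results was not tested.

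Every one of the 7 kinesin-like genes exceeded the negative controls on each array, and none was called between *nsr* mutant and WT testes. *Klp31E* had the lowest log2 fold change of the 7, at -0.50, while those of *Klp59D*, *Klp67A* and *Klp61F* were between -0.03 and 0.00. The median of the 7 was -0.13, against -0.04 for all probe sets and -0.08 for those above the negative controls on all arrays. The fold changes come from limma on log2(intensity + 16), with Benjamini-Hochberg adjustment over all 18769 probe sets. On this scale the change of a dim gene is understated. An unadjusted p under 0.05 was reached by 1 of the 7, *Klp31E*, beside 7.13% of all probe sets. For 2 of the 7, *Klp31E* and *Klp68D*, the brighter mutant array was still dimmer than the dimmer WT array (wholly lower), beside 24.9% of all probe sets and 28.0% of those above the negative controls on 4 arrays. None of the 7 was wholly higher, beside 10.2%. In a testis as a whole, fewer cells of a type and less RNA per cell cannot be told apart.

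**Figure D1:**
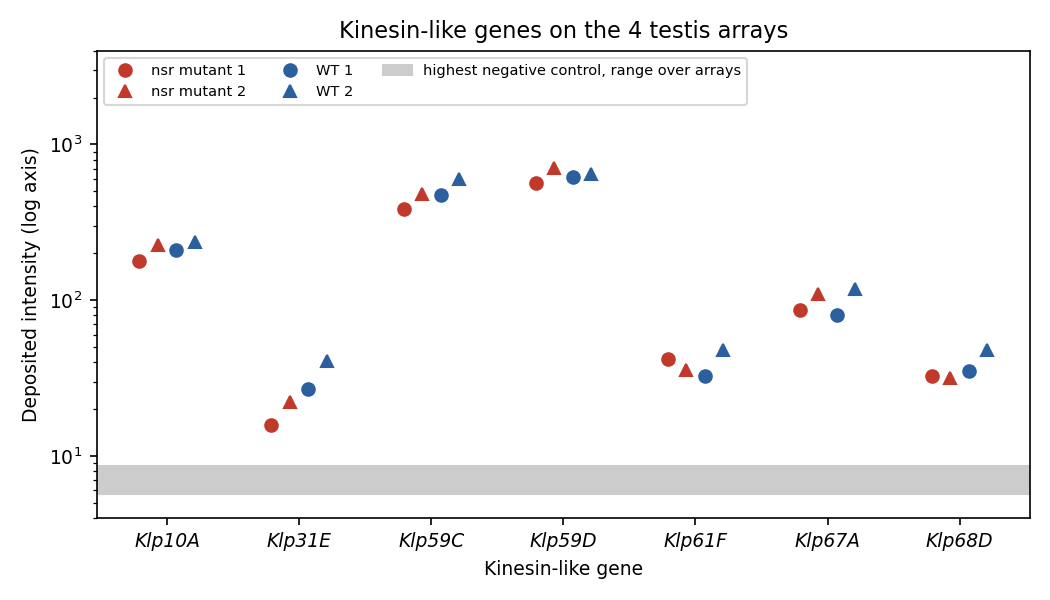
Deposited intensity (log axis) of the 7 kinesin-like genes on each array, with circles for replicate 1 and triangles for replicate 2, red for *nsr* mutant and blue for WT. All 28 points lie above the grey band, which spans the highest negative control of the arrays (5.70 to 8.58). Heights are not comparable between genes, as each has its own probes.

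The genes of the kinesin-13 family come first. These motors do not walk but remove tubulin from microtubule ends. *Klp10A*, which acts at spindle poles and on centrioles, had intensities of 179 and 225 in the mutant and 210 and 235 in WT. The second mutant array lay between the WT arrays. The means were 202 ± 32.7 and 222 ± 17.6 (SD, n = 2 each), which gave a log2 fold change of -0.13 (95% interval -0.50 to 0.24, adjusted p = 0.891 from limma). Its probe set is of the type that can match more than 1 transcript, and *CG44385* overlaps the gene in the gene table.

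*Klp59C*, which removes tubulin at chromosome-bound microtubule ends in embryonic mitosis, had 383 and 483 in the mutant and 475 and 603 in WT. The genotypes overlapped by a narrow margin, since the brighter mutant array passed the dimmer WT array. With means of 433 ± 71.1 and 539 ± 90.7 (SD, n = 2 each), the log2 fold change was -0.30 (95% interval -0.76 to 0.15, adjusted p = 0.775 from limma). The interval includes 0, and the value was -0.14 without *nsr* mutant 1 and -0.47 without *nsr* mutant 2.

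*Klp59D*, the third kinesin-13 gene of the fly, had 569 and 709 in the mutant and 619 and 650.0 in WT. The WT arrays sat inside the range of the mutant arrays. Its log2 fold change was 0.00 (95% interval -0.35 to 0.36, adjusted p = 0.9997 from limma), the value nearest to 0 among the 7. The sign turned without *nsr* mutant 2 (-0.15) or WT 1 (-0.03).

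Next are the motors of the spindle. *Klp61F* encodes the kinesin-5 motor, which slides antiparallel microtubules and parts the centrosomes. It had 41.7 and 35.5 in the mutant and 32.6 and 47.8 in WT, so that both mutant arrays lay between the WT arrays. The log2 fold change was -0.03 (95% interval -0.46 to 0.40, adjusted p = 0.996 from limma), and it was above 0 with array medians centred (0.0405) and after quantile normalization (0.0684). The gene *galene* overlaps it in the gene table.

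*Klp67A* encodes the kinesin-8 motor, which limits spindle length and is needed in spermatocytes for the meiotic spindle and cytokinesis. It had 87.0 and 109 in the mutant and 80.6 and 119 in WT. Here too both mutant arrays lay between the WT arrays, and the WT arrays were farther apart than the genotypes. The log2 fold change was -0.01 (95% interval -0.53 to 0.51, adjusted p = 0.9997 from limma), and it was 0.0645 with array medians centred and 0.0941 after quantile normalization. *CG34456* and *mRRF1* overlap the gene in the gene table.

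The remaining genes are a motor subunit of cilia and a gene that is also listed under the name of a mammalian motor. *Klp68D* encodes a subunit of kinesin-2, which with *Klp64D* and *Kap3* moves cargo into the cilia of sensory neurons, while the sperm tail of the fly forms without such transport. It had 32.5 and 31.4 in the mutant and 35.0 and 47.9 in WT. Both mutant arrays were below both WT arrays, but the step from *nsr* mutant 1 to WT 1 was small and most of the difference came from WT 2. The means were 31.9 ± 0.76 and 41.5 ± 9.17 (SD, n = 2 each), which gave a log2 fold change of -0.25 (95% interval -0.61 to 0.11, adjusted p = 0.764 from limma). Without WT 2 it was -0.09, and without WT 1 -0.42.

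*Klp31E*, which the gene table also lists as KIF21A, the name of a mammalian motor that slows microtubule growth, departed most from WT. It had 15.7 and 22.3 in the mutant and 26.9 and 40.6 in WT. The genotypes did not overlap, and the ratio of the means, 19.0 ± 4.69 over 33.8 ± 9.73 (SD, n = 2 each), was 0.563. On the log2(intensity + 16) scale the fold change was -0.50 (standard error 0.18, 95% interval -0.97 to -0.03), short of the threshold (adjusted p = 0.690 from limma). Of all probe sets, 1.52% had a lower log2 fold change, and of those above the negative controls on all arrays 2.37%. It was -0.43 with array medians centred (adjusted p = 0.193 from limma) and -0.42 after quantile normalization. Leaving out WT 2 gave -0.30. A pseudocount of 1 in place of 16 gave -0.79 (95% interval -1.67 to 0.09), and one of 64 gave -0.23 (-0.51 to 0.05). These intervals include 0, as does that with an intensity trend in the prior (-1.01 to 0.01). The interval left out 0 with array medians centred, after quantile normalization, with the replicate block and with the 2 filters on dim probe sets.

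The probe set shared by *Klp54D* and *CG43324* had 6.47 and 12.1 in the mutant and 9.10 and 2.99 in WT. It was above the negative controls on 2 of 4 arrays, so its values are read as neither gene.

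**Figure D2:**
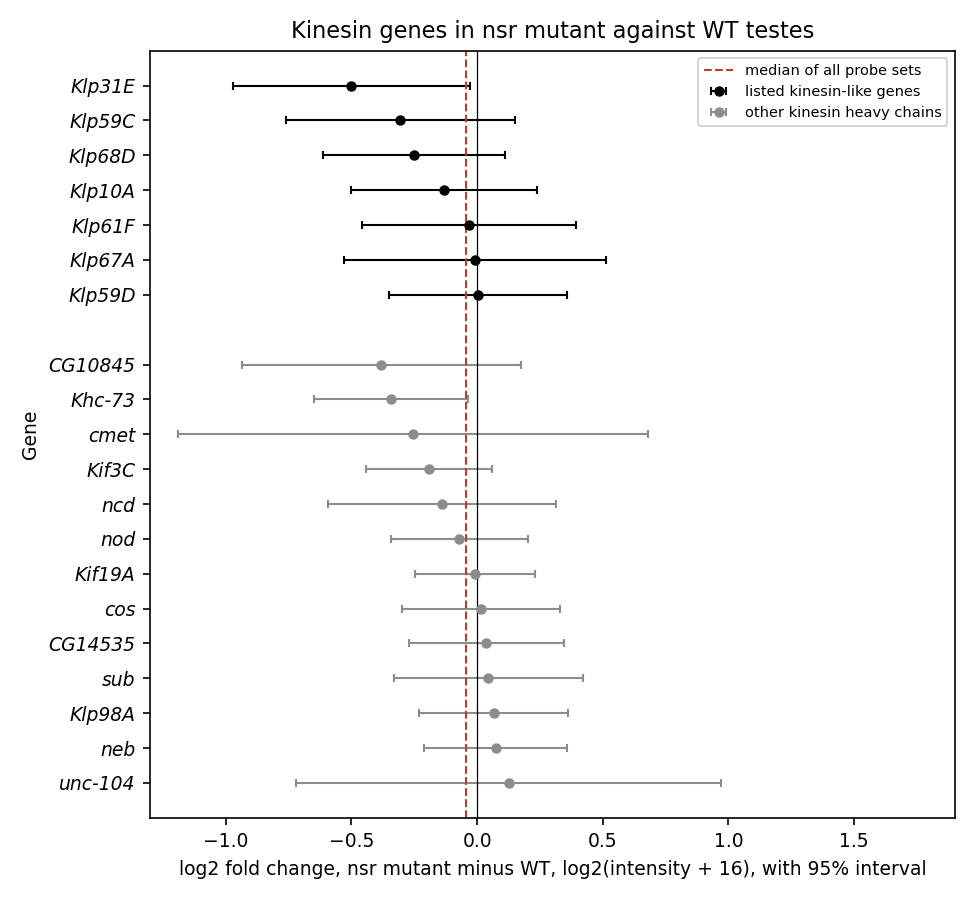
Log2 fold change of *nsr* mutant over WT on the log2(intensity + 16) scale, with the 95% interval from limma, for the 7 listed genes (black) and 13 other kinesin heavy chain genes (grey). The dashed line is the median of all probe sets (-0.04), and the intervals of *Klp31E* and *Khc-73* are the ones that leave out 0.

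The arrays of 1 genotype also differed from each other. All 7 genes were brighter on WT 2 than on WT 1, and 5 of 7 were brighter on *nsr* mutant 2 than on *nsr* mutant 1, with *Klp61F* and *Klp68D* dimmer there. The median log2 difference between the replicates of a genotype was 0.33 in WT and 0.28 in the mutant for the 7 genes. For all probe sets above the negative controls it was 0.17 and 0.14. The median difference of -0.13 between the genotypes is one of means of 2 arrays, so it is not set against these. Between single arrays the median of the 7 was -0.12 for *nsr* mutant 1 minus WT 1. It was -0.31 for *nsr* mutant 2 minus WT 2. For all probe sets above the negative controls these were -0.07 and -0.09.

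Centring the array medians moved the median of the 7 from -0.13 to -0.06 and left none called, beside 0.591% of all probe sets called in that setting. *Klp59C* then joined *Klp31E* and *Klp68D*, so that 3 of 7 were wholly lower in the mutant, *Klp59C* and *Klp68D* by narrow margins. In that setting 16.5% of all probe sets were wholly lower and 22.1% wholly higher. The count of such genes also depended on single arrays. It was 5 without *nsr* mutant 2 and 6 without WT 1, where 51.8% and 53.1% of all probe sets met the criterion. It stayed at 2 without *nsr* mutant 1 and without WT 2, where 34.2% and 33.3% did.

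**Figure D3:**
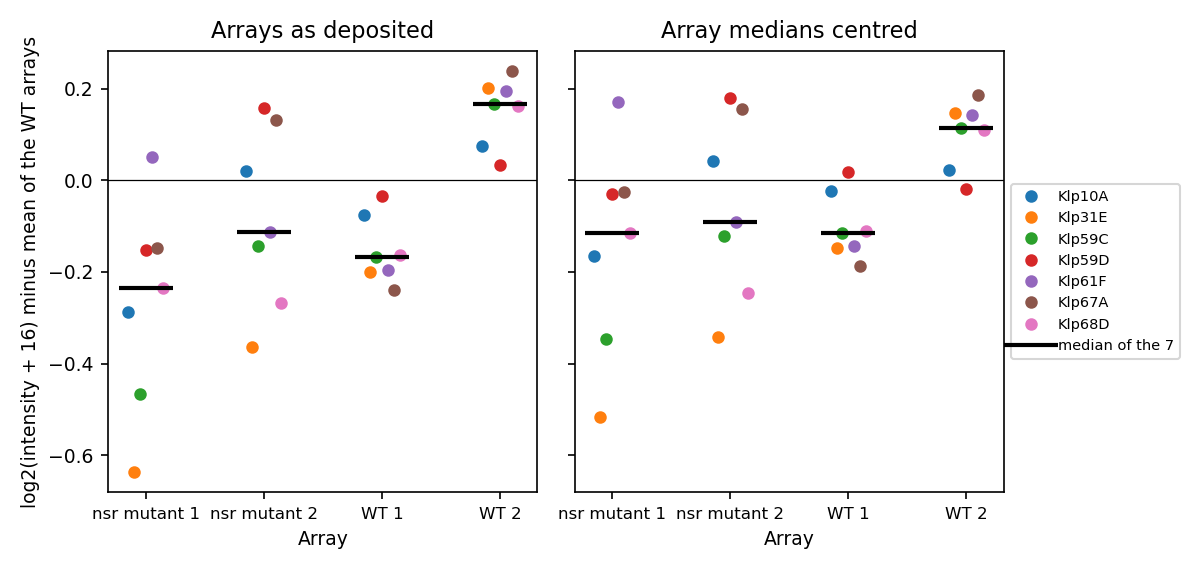
Each point is log2(intensity + 16) of a kinesin-like gene on 1 array minus the mean of that gene over the WT arrays, as deposited (left) and with array medians centred (right), and the black bar is the median of the 7. *Klp31E* is lowest on both mutant arrays in both panels, and as deposited the median on WT 1 (-0.17) lies between those on *nsr* mutant 2 (-0.11) and *nsr* mutant 1 (-0.24).

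Ratios between 2 genes on the same array are not moved by the brightness of that array. They were formed for 4 pairs of 1 family or complex, chosen after the values were seen, and each is given relative to its mean over the WT arrays, since the ratio itself depends on the probes. The ratio of *Klp59C* to *Klp59D* was lower by 0.33 and 0.31 in log2 on the mutant arrays, while the WT arrays lay 0.14 to either side of their mean. The mutant values were close to each other and apart from both WT values. The difference of -0.32 is a description, since 0.333 is the smallest two-sided p that an exact permutation test of 2 arrays against 2 allows. The ratios of *Klp59C* to *Klp10A* and of *Klp10A* to *Klp59D* were also wholly lower in the mutant, with differences of -0.17 and -0.15. These 3 ratios share their genes and are not separate observations. The share of all gene pairs that separate in this way was not counted, so nothing is read from the number of pairs that do. The ratio of *Klp68D* to *Kap3*, its partner, overlapped between genotypes, with a difference of 0.07.

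**Figure D4:**
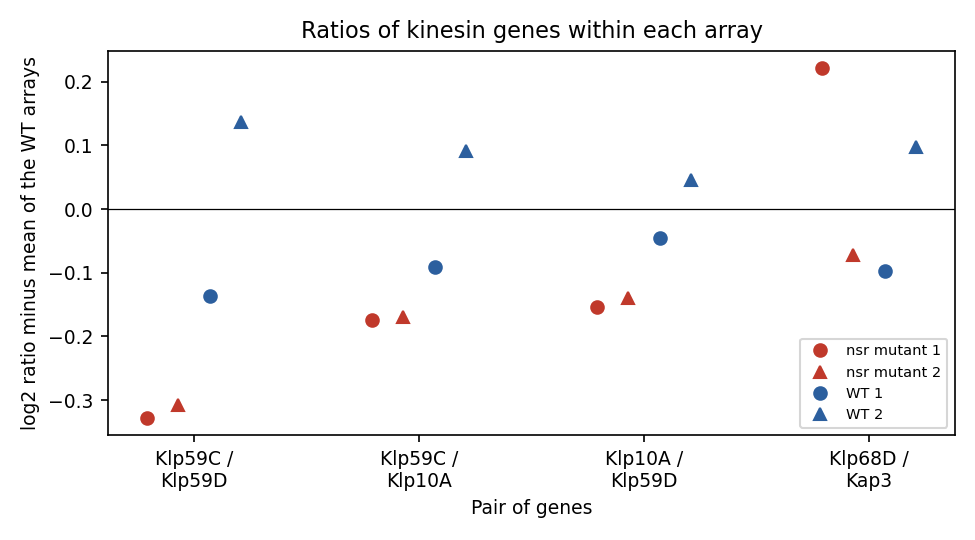
Log2 ratio of the intensities of 2 genes on 1 array, minus the mean of that ratio over the WT arrays, for 4 pairs, with red for *nsr* mutant, blue for WT, circles for replicate 1 and triangles for replicate 2. For the 3 kinesin-13 pairs, which share their genes, the mutant points lie below both WT points, and for *Klp68D* and *Kap3* they overlap. How often other gene pairs separate in this way was not counted.

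Among 17 other kinesin heavy chain genes, 13 were measured by the same criterion, and 8 of these exceeded the negative controls on every array. None was called, with 1 at an unadjusted p under 0.05 in limma, and their median log2 fold change was -0.01 (0.06 with array medians centred). That 1 was *Khc-73*, a plus-end directed kinesin-3 motor, with 21.8 and 27.6 in the mutant and 33.5 and 37.6 in WT. It was wholly lower in the mutant, with a log2 fold change of -0.34 (adjusted p = 0.690 from limma). Its other probe set stayed at background. *CG10845*, listed in the gene table as KIF26A/B, had 482 and 660.1 in the mutant and 640.2 and 854 in WT, which overlapped by a narrow margin (log2 fold change -0.38). *ncd*, the minus-end directed kinesin-14 motor, had 52.4 and 67.4 against 57.4 and 78.5 (log2 fold change -0.14). *Kif3C* was above the negative controls on 1 array (log2 fold change -0.19). The mutant arrays of *cmet*, a CENP-E kinesin of the kinetochore that was picked after the values were seen, lay far apart. Its intensities were 102 and 232 in the mutant, to either side of the 189.7 and 186 in WT. Over all 20 kinesin genes measured, 4 were wholly lower in the mutant and 0 wholly higher, beside the 24.9% and 10.2% given above.

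Genes that work with kinesins were read from 4 further lists, with 32 genes measured and none called. Of 8 kinesin partners and adaptors the median log2 fold change was -0.06 (0.01 with array medians centred), with 0 at an unadjusted p under 0.05 in limma. Of the 8, 3 were wholly lower in the mutant, *Kap3*, *Miro* and *Aplip1*, beside 24.9% of all probe sets. *Kap3*, the third subunit of kinesin-2, had 28.3 and 33.5 in the mutant and 37.9 and 45.4 in WT (log2 fold change -0.30, 95% interval -0.61 to 0.01). The genotypes did not overlap, as with *Klp68D*, and after quantile normalization the 2 genes had -0.20 and -0.15. *Miro*, which links mitochondria to kinesin, and *Pat1*, which acts with kinesin-1, each had a log2 fold change of -0.16. For *Miro* the nearest arrays of the genotypes were at 142.3 and 142.6. *Aplip1*, a kinesin-1 adaptor, was at background on all 4 arrays.

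Of 10 measured genes of the central spindle and cytokinesis (14 listed) the median was -0.05 (0.02 with array medians centred), with 0 at an unadjusted p under 0.05 in limma. *feo*, the PRC1 homologue that bundles the central spindle, had 80.0 and 92.2 in the mutant and 96.0 and 104.5 in WT (log2 fold change -0.19). *scra*, which encodes anillin, had 18.7 and 12.3 against 22.0 and 22.6 (log2 fold change -0.29). These 2 of the 10 genes were wholly lower in the mutant, beside 24.9% of all probe sets. *brun*, needed for cytokinesis in spermatocytes, had -0.16, and *Incenp*, of the chromosomal passenger complex, 0.10.

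Of 10 measured spindle and microtubule regulators (13 listed) the median was -0.17 (-0.10 with array medians centred), with 1 at an unadjusted p under 0.05 in limma. That gene, *futsch*, a microtubule-associated protein of neurons, was at background on all 4 arrays. Of the 10, 2 were wholly lower in the mutant, *futsch* and *tacc*, beside 24.9% of all probe sets. The centrosomal gene *tacc* had 123 and 175 in the mutant and 182 and 224 in WT, without overlap (log2 fold change -0.42). Its partner *msps*, which promotes microtubule growth, had -0.22, and *Grip84*, of the gamma-tubulin complex, -0.16. Of 4 measured tubulin genes (5 listed) the median was -0.11 (-0.03 with array medians centred), with 0 at an unadjusted p under 0.05 in limma. *betaTub85D*, the testis-specific beta-tubulin, had 3938 and 4329 in the mutant and 3912 and 4674 in WT (log2 fold change -0.05, and 0.02 with array medians centred). *betaTub56D* and *alphaTub85E* had -0.23 and -0.16 (-0.16 and -0.09 with array medians centred). These 2 of the 4 were wholly lower in the mutant, beside 24.9% of all probe sets. *alphaTub84D* was above the negative controls on 1 array, with -0.05, also 0.02 with array medians centred.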

How the data were processed

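The authors amplified and labelled total RNA and hybridised it to 1-colour arrays, and the table they deposited holds an intensity on a linear scale for each probe set on each array. For probe summaries, background correction and scaling, the software was not given in the sources used here. Array medians ran from 12.1 to 15.7. Of 18952 probe sets, 183 Affymetrix controls were left out. The 50 controls named by a protein accession were taken as negative controls, a role that the sources do not state.

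Genes were named from the array annotation, which gives a single gene to 13647 probe sets. Of these 13544 were found by gene ID in a table of genome release 6. Where a gene of a list had several probe sets, that of the highest mean was used. Another spelling or symbol was used to match 4 list names.

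The mutant and WT arrays were set against each other in limma 3.58.1 (R 4.3.3; lmFit, then eBayes) on log2(intensity + 16), two-sided and without covariates. Called means an adjusted p under 0.05. SAM, named in the methods of the study, was not run. The limma step was tested on simulated data. Tables were made with Python 3.11.15, pandas 2.3.3 and scipy 1.17.1. The text names all members, from each kinesin list the 4 genes of smallest p, and *cmet*, chosen later. Members and lists were chosen with earlier results of these data known.

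Alternatives were pseudocounts of 1 and 64, array medians centred, quantile normalization, 2 filters on dim probe sets, an intensity trend in the prior, a replicate block, leaving out each array, and averaging the probe sets of each gene.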

Additional observations from a re-analysis of the deposited data

How the results depend on the processing

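None of the 7 kinesin-like genes was called under any alternative, and their median log2 fold change stayed below 0. With a pseudocount of 1 or without 1 array no probe set was called, *nsr* included, so those settings say nothing about calls of the 7. Averaging the probe sets of each gene could not alter the fold changes of the 7, as each has 1 probe set. Without 1 array the median was between -0.25 and -0.06, and the number wholly lower in the mutant between 2 and 6. The number wholly higher was 1 without *nsr* mutant 1 and 2 without WT 2, where 30.8% and 31.5% of all probe sets were. *Klp31E*, *Klp59C* and *Klp68D* were below 0 in all settings. *Klp61F* and *Klp67A* turned above 0 with array medians centred (0.0405 and 0.0645) and after quantile normalization (0.0684 and 0.0941). Without 1 array *Klp10A* ranged from -0.29 to 0.0203, *Klp59D* from -0.15 to 0.16, *Klp61F* from -0.23 to 0.16 and *Klp67A* from -0.25 to 0.23. The cause of these turns was not tested.

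Of all probe sets 1 was called, and 0 with a pseudocount of 1 or without any 1 array, 3 after quantile normalization (1 higher and 2 lower), 111 with array medians centred (37 higher and 74 lower), 122 without probe sets below the median level and 129 without those not above the highest negative control. The last 2 settings leave each fold change as it was and share 1 pooled spread among all probe sets. With the replicate number as a block 2 were called, and *Klp31E* had the same log2 fold change of -0.50 (adjusted p = 0.327 from limma). The deviations of same-numbered arrays correlated at 0.15 over all probe sets, but with 2 pairs the numbers are not known to pair the arrays. Precision is limited by having 2 arrays of each genotype, and an array left alone is assumed to vary like the other genotype.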
